A study of Homo sapiens with 4 samples.

Results

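The adaptors, scaffolds and kinases on the inner side of focal adhesions were followed in LX-2 cells carrying an miR-6133-5p mimic. The 39 genes were listed by name for their place in the adhesion, with the integrins left out, and are 39 of the 63677 genes in the count table. LX-2 is 1 established line of human hepatic stellate cells, the liver cells that lay down scar matrix. The cells were transfected with 20 nM of the miR-6133-5p mimic or of a non-targeting mimic (miControl). Both groups then received 5 ng/mL recombinant human TGF-β1 at 24 h, and RNA was taken a further 24 h later, so no library shows cells without TGF-β1. Each group has 2 libraries, with total counts of 51862006 and 57903388 in miControl and 61747010 and 93811213 with miR-6133-5p. The replicates are numbered with no word on separate cultures, so p-values measure only the spread between these libraries.

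The mesenchymal genes of the line were present: SPARC lay at 3675 and 3600 CPM (counts scaled to library depth by TMM) in miControl, and VIM at 1852 and 1775. The stellate markers DES, LRAT and LUM were each at 0.0917 CPM or less in every library. The 13 stellate and fibroblast genes together summed to 9076 and 8512 CPM in miControl and 6343 and 5719 with the mimic. Most of that fall lay in COL1A1 (mean 2916 CPM in miControl and 1063 with the mimic) and SPARC (3637 and 2749). COL1A2 and COL3A1 were also lower, at 46.3% and 73.5% of the control mean (edgeR adjusted p = 4.34e-06 and 0.00486), while VIM and PDGFRB stood at 98.8% and 103% of the control mean and TIMP1 rose (192 and 257, edgeR adjusted p = 0.0134). The part of these shifts in the results below was not tested. Summed over 6 hepatocyte genes, the level was 2.07, 2.62, 2.81 and 2.38 CPM in miControl 1 and 2 and miR-6133-5p 1 and 2, nearly all of it SERPINA1. The 4 epithelial and cholangiocyte genes summed to 3.70 and 4.59 CPM in miControl and 6.82 and 7.32 with the mimic, led by KRT7, with EPCAM and CDH1 at or near 0. KRT7 was higher without overlap (log2 fold change 0.76, edgeR adjusted p = 0.00317, not called). The 4 leukocyte genes summed to at most 2.34 CPM and 3 endothelial genes (CDH5, VWF and STAB2) to at most 1.35 CPM in any library. In bulk RNA, less of a transcript per cell and a shift in the mix of cells cannot be told apart.

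Focal adhesions tie the extracellular matrix to actin. Talin and kindlin bind integrin tails and switch them on, vinculin and tensin reinforce the link to actin, and ILK, PINCH and parvin form another bridge. FAK and SRC family kinases signal from paxillin and p130Cas scaffolds, and in stellate cells this machinery grows with activation, stress fibres and matrix stiffness.

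By its name the mimic copies the 5p arm of a human miRNA whose hairpin RefSeq places at chr7:133290881-133290988, + strand, GRCh38.p14. The mature sequence was not available here, so its place in the hairpin is not marked. The 108 bases of the hairpin are shown because the mimic is named for 1 of its arms:
MIR6133 hairpin: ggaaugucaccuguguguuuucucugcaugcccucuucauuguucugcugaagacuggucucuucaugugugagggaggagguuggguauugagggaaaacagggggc

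Of the 39 genes, 38 passed the filter on low counts and were tested; PIP5K1B, at 0.0306 to 0.111 CPM, was not. With miR-6133-5p, 7 of the 38 were called lower (edgeR quasi-likelihood test, adjusted p under 0.01 and log2 fold change below -0.8), or 18.4%, against 5.54% of the 18252 genes tested. They were PIP5K1C, FERMT1, VCL, LPP, TES, GIT1 and PARVA. None was called higher by edgeR or DESeq2, against 2.90% of all genes by edgeR, although 2, KANK2 and LIMS2, were higher at an unadjusted p under 0.05. At an adjusted p under 0.05 with no fold threshold, 17 were lower (44.7%) and 1, KANK2, higher (2.63%). Over all genes tested the shares were 16.1% and 14.1%. Those genes were not matched to the members for abundance, so their shares are a rough yardstick. Both mimic libraries lay below both miControl libraries for 24 of the 38 and above for 5, where 31.3% and 33.2% of all genes did so. The median log2 fold change was -0.26 over the members and 0.03 over all tested genes.

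The scale matters to these counts. With library totals alone in place of TMM, the median of all genes moved from 0.03 to 0.19, and the split of calls turned from 1011 lower and 529 higher to 709 lower and 977 higher. The members' median lay 0.28 below that of all genes under both scalings (a difference of -0.28). On library totals 4 members stayed called lower, PIP5K1C, FERMT1, VCL and LPP, while PARVA, GIT1 and TES did not, and KANK2 was called higher. At an adjusted p under 0.05, 11 members were lower and 4 higher on library totals, in place of 17 and 1. Tested against the fold threshold itself (edgeR glmTreat), PIP5K1C and FERMT1 kept their call and VCL, LPP, TES, GIT1 and PARVA lost it.

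**Figure D1:**
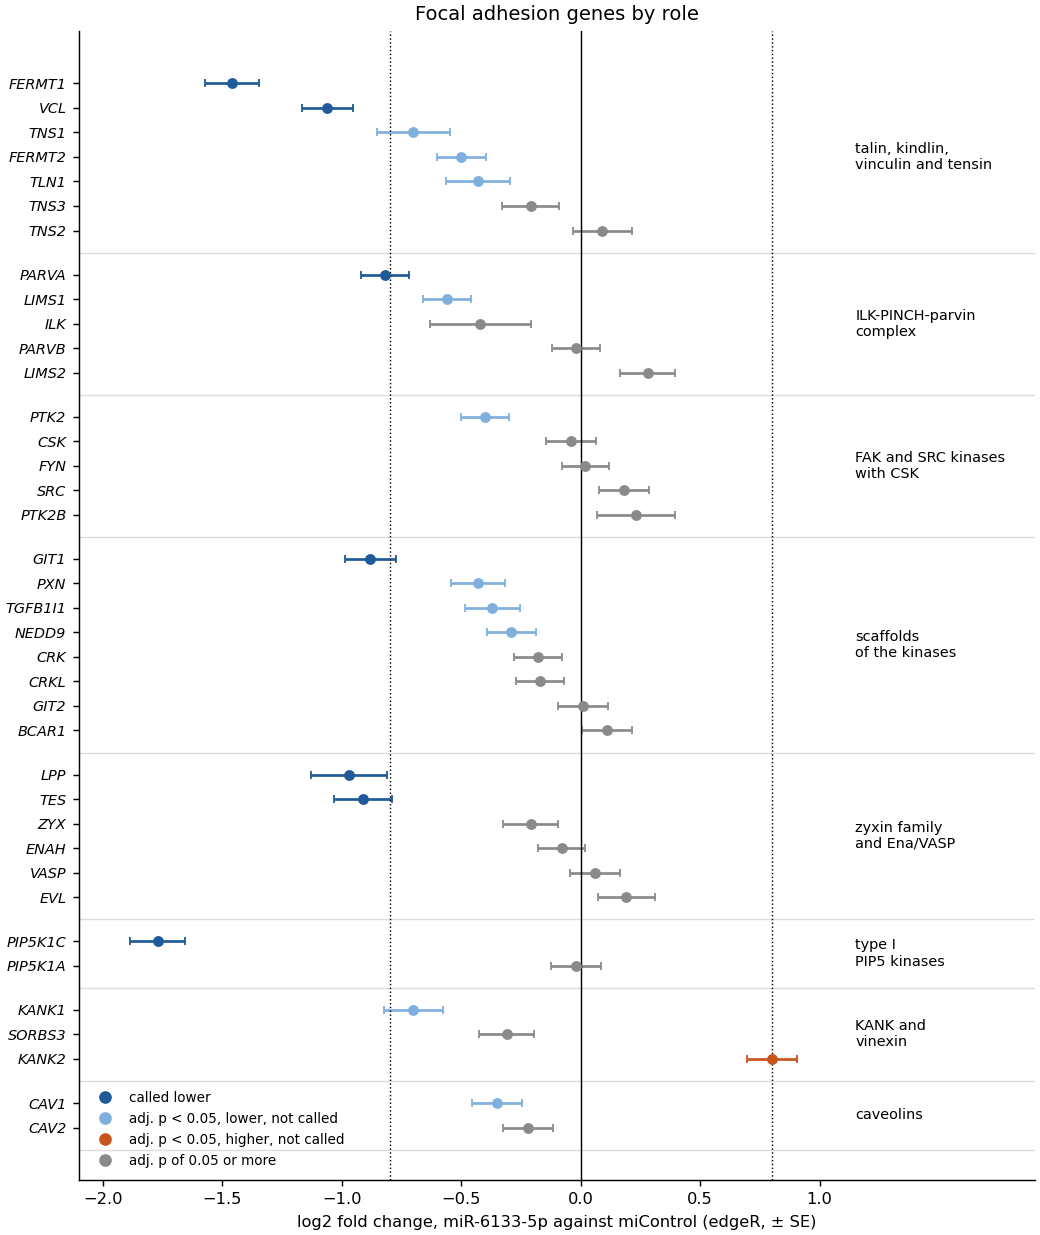
The log2 fold change of each tested member, miR-6133-5p against miControl, with its standard error (edgeR, 2 libraries a group), grouped by role; dotted lines mark -0.8 and 0.8. Calls are spread over 5 of the 8 role groups, from PIP5K1C at -1.77 to PARVA at -0.82, and KANK2 alone lies near the upper line.

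**Figure D2:**
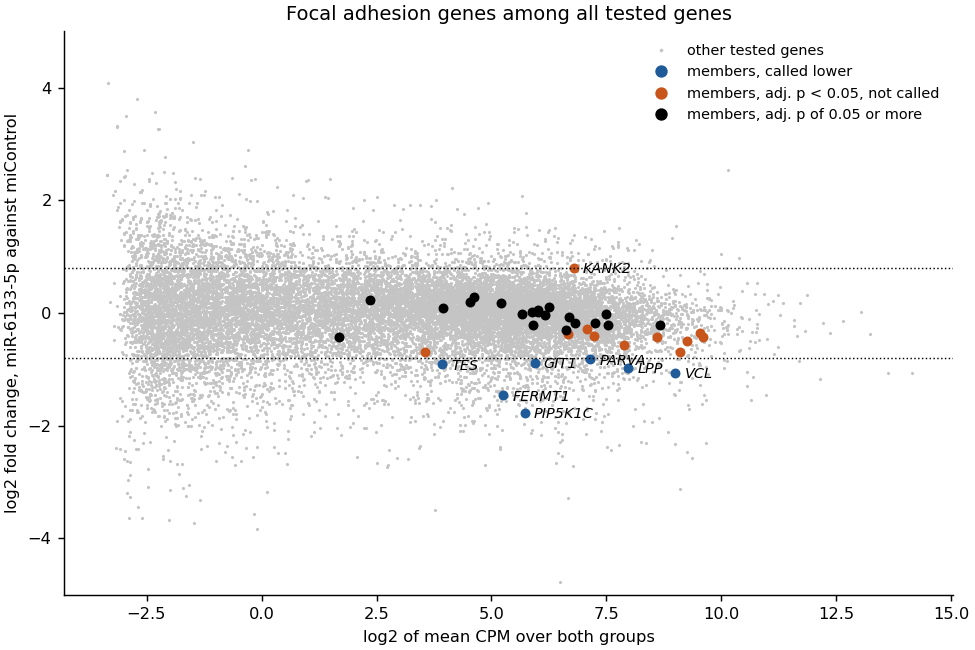
The log2 fold change of all 18252 tested genes against the log2 of their mean CPM; 5 genes lie outside the plotted range. Members called lower cover low levels (TES) and high ones (VCL), and most members lie at or below 0.

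The deepest fall was in a lipid kinase. PIP5K1C (chr19:3630181-3700466, GRCh37) makes PIP2 at adhesions, a lipid that opens vinculin and helps talin bind integrins. It read 84.3 and 78.2 CPM in miControl and 21.9 and 25.7 with the mimic. The mimic libraries stood at 29.3% of the control mean, with no overlap, and the log2 fold change was -1.77 ± 0.115 (SE; edgeR adjusted p = 2.35e-07). PIP5K1A, the other expressed type I kinase, read 177 and 181 CPM in miControl and 185 and 169 with the mimic. These values overlap (log2 fold change -0.02, or 0.15 on library totals). Per kb of exon, PIP5K1C made up 26.5% and 24.8% of the pair in miControl and 8.23% and 10.4% with the mimic. PIP5K1C is also among the genes the study knocked down after picking predicted targets by their fall in these same libraries, so its fall is not independent evidence.

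Among the proteins that link integrins to actin, 5 of 7 were lower at an adjusted p under 0.05 (71.4%, against 16.1% of all genes). Of the 7, 2 were called lower (28.6%, against 5.54% of all genes). VCL (vinculin, chr10:75754951-75881121) read 696 and 688 CPM in miControl and 311 and 353 with the mimic. The mimic libraries stood at 48.0% of the control mean, a gap far larger than that between replicates (log2 fold change -1.06 ± 0.107, edgeR adjusted p = 8.77e-06), and AP3M1 on the opposite strand covers 11.1% of its exon bases. FERMT1 (kindlin-1, chr20:6055492-6103861) read 56.8 and 55.6 CPM against 18.9 and 21.9, a fall to 36.3% (log2 fold change -1.46 ± 0.112, adjusted p = 8.24e-07). Per kb of exon FERMT1 averaged 5.49 CPM in miControl, between FERMT2 (kindlin-2) at 84.5 and FERMT3 (kindlin-3), outside the members, at 0.271. The low FERMT3 went the other way, from 3.54 and 2.77 CPM to 4.78 and 4.5 (log2 fold change 0.56, edgeR adjusted p = 0.0354, not called). FERMT2 read 695 and 735 CPM in miControl and 528 and 486 with the mimic, a log2 fold change of -0.50 (adjusted p = 0.00266). Without miControl replicate 2 the adjusted p of FERMT2 was 0.0646.

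TLN1, which encodes talin-1 and is the most abundant of this group per kb of exon (89.0 CPM per kb in miControl, 66.1 with the mimic), read 920 and 847 CPM against 555 and 758. TNS1 (tensin-1) read 693 and 659 CPM against 332 and 500. In both genes miR-6133-5p replicate 1 was well below replicate 2, though each mimic library lay below both controls. The log2 fold changes were -0.43 for TLN1 (adjusted p = 0.0286) and -0.70 for TNS1 (adjusted p = 0.00383). They ranged from -0.69 to -0.24 and from -1.04 to -0.45 when 1 library was left out, TNS1 being called at -1.04 without mimic replicate 2. TLN1 passed an adjusted p of 0.05 neither without miControl 1 or 2 nor on library totals, and TNS1 not without miControl 1. TNS2 and TNS3 did not pass it (log2 fold changes 0.09 and -0.21), except TNS3 without mimic replicate 2, and TNS2 read -0.03 without that library.

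In the complex of ILK, PINCH and parvin, 1 of 5 genes was called lower (20%, against 5.54% of all genes). At an adjusted p under 0.05, 2 were lower (40%, against 16.1% of all genes). PARVA (alpha-parvin, chr11:12399110-12556903), an actin-binding partner of ILK, read 181 and 182 CPM in miControl and 101 and 105 with the mimic. The replicates of each group nearly coincide and the groups are far apart (log2 fold change -0.82 ± 0.101, edgeR adjusted p = 4.7e-05). Its fold lies close to the threshold, and it was not called on library totals (-0.66). PARVB (beta-parvin) read 52.0 and 50.1 CPM in miControl and 50.4 and 50.3 with the mimic (log2 fold change -0.02, or 0.14 on library totals). PARVA thus went from 67.3% and 68.2% of the pair per kb of exon to 54.1% and 55.1%.

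LIMS1 (PINCH-1), the most abundant of the complex per kb of exon at 30.8 CPM in miControl and 20.9 with the mimic, read 275 and 283 CPM against 190 and 188 (log2 fold change -0.56, adjusted p = 0.000924). Near-identical copies of LIMS1 exist in the genome, so its count is uncertain. LIMS2 (PINCH-2) read 24.0 and 20.9 CPM in miControl and 27.7 and 26.7 with the mimic, higher without overlap but at an adjusted p of 0.0857 (below 0.05 on library totals). ILK itself read 3.64 and 3.76 CPM against 2.23 and 3.26 (adjusted p = 0.158, below 0.05 without mimic replicate 2). Other genes on the opposite strand, TAF10 among them, cover 78.5% of its exon bases, and the strand setting of the counting is not stated, so the level of ILK is uncertain.

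Of the 5 kinases, none was called, where 5.54% of all genes were called lower, and 1 was lower at an adjusted p under 0.05 (edgeR). That share, 20%, is near the 16.1% of all genes lower at this threshold. PTK2, which encodes FAK, read 172 and 170 CPM in miControl and 129 and 130 with the mimic. Each pair of replicates agrees closely, with the mimic at 75.8% of the control mean (log2 fold change -0.40 ± 0.0999, edgeR adjusted p = 0.0086). It fell short of the fold threshold, and the adjusted p passed 0.05 neither on library totals nor without miControl 1 or 2, reaching 0.112. The other 4 did not pass 0.05: PTK2B (PYK2) at a log2 fold change of 0.23, SRC at 0.18, FYN at 0.02 and CSK, the kinase that switches SRC off, at -0.04. CSK was the most abundant of these per kb of exon (16.0 CPM in miControl, 15.5 with the mimic), and FYN and CSK change sign between settings. SRC read 35.0 and 34.0 CPM in miControl and 40.3 and 37.6 with the mimic, higher in both libraries, and passed 0.05 on library totals (log2 fold change 0.34).

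Of the 8 scaffolds that these kinases use, 4 were lower at an adjusted p under 0.05 (50%, against 16.1% of all genes). Among the 8, 1 was called lower (12.5%, against 5.54% of all genes). GIT1 (chr17:27900493-27921072), which carries the Rac exchange factor PIX and binds paxillin, read 83.9 and 75.5 CPM in miControl and 41.7 and 44.7 with the mimic. The mimic libraries stood at 54.1% of the control mean with no overlap (log2 fold change -0.88 ± 0.106, edgeR adjusted p = 3.67e-05), but were not called on library totals (-0.72). Its paralog GIT2 read 63.3 and 65.8 CPM against 60.8 and 69.4, which overlap (log2 fold change 0.01, negative without miControl 1 or mimic replicate 2). TCHP on the opposite strand covers 22.2% of the exon bases of GIT2. GIT1 made up 76.1% and 73.3% of the pair per kb of exon in miControl and 62.1% and 60.7% with the mimic.

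Paxillin (PXN), the docking protein of FAK and the most abundant scaffold per kb of exon (59.2 CPM in miControl, 44 with the mimic), read 469 and 415 CPM against 306 and 351. Both mimic libraries were lower (log2 fold change -0.43, edgeR adjusted p = 0.0114); PXN-AS1 on the opposite strand covers 23.7% of its exon bases. TGFB1I1 (Hic-5), a paxillin relative known for induction by TGF-β, was at -0.37 and NEDD9 at -0.29, with adjusted p of 0.0282 and 0.0424. PXN, TGFB1I1 and NEDD9 all missed 0.05 on library totals and without miControl 1, and NEDD9 also without miControl 2 and with no filter on low counts. BCAR1 (p130Cas), the relative of NEDD9, read 77.0 and 68.3 CPM against 75.6 and 80.8, which overlap. CRK and CRKL, the adaptors bound by both, were at -0.18 and -0.17 without passing the test.

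In the group of zyxin and Ena/VASP genes, the 2 called were LPP and TES, while zyxin itself was not. They were 2 of the 6 genes of this group (33.3%, against 5.54% of all genes called lower). LPP (chr3:187871072-188608460) shuttles between adhesions and the nucleus and read 314 and 351 CPM in miControl and 135 and 205 with the mimic. Both mimic libraries were below both controls, but mimic replicate 1 was far below replicate 2, by 0.60 on the log2 scale. The log2 fold change was -0.97 ± 0.159 (edgeR adjusted p = 0.000491). LPP was not called without miControl 1 (-1.05), without miControl 2 (-0.91) or without mimic replicate 1 (-0.71). TES (testin, chr7:115850560-115898837) binds zyxin and Mena and read 18.8 and 20.8 CPM against 11 and 10.2. It stood at 53.4% of the control mean with close replicates (log2 fold change -0.91 ± 0.122, adjusted p = 0.000101), and was not called on library totals (-0.74).

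ZYX, the most abundant of the group per kb of exon (134 CPM in miControl, 115 with the mimic), read 474 and 400 CPM against 400 and 354. These values touch, and the log2 fold change of -0.21 did not pass the test, except at an adjusted p under 0.05 without mimic replicate 1. The Ena/VASP proteins, which extend actin filaments at adhesions, lay between -0.08 (ENAH) and 0.19 (EVL), with VASP at 0.06, none past 0.05 with TMM; EVL passed it on library totals (0.35), where ENAH read 0.09.

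**Figure D3:**
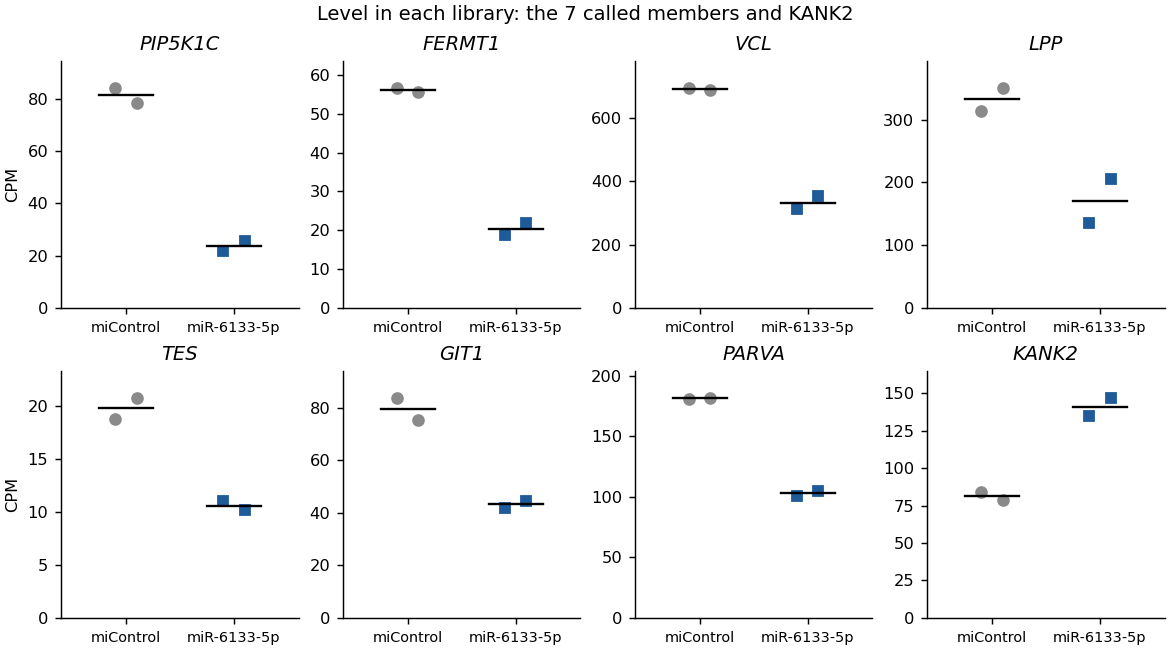
CPM of the 7 called members and KANK2 in each library (circles, miControl; squares, miR-6133-5p; bars, group means; each axis starts at 0). In every panel the groups are apart, and LPP has the widest gap between its mimic libraries, 135 and 205 CPM.

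The KANK proteins ring the adhesion, bind talin and dock microtubules there, and the 2 KANK genes among the members went opposite ways. KANK2 (chr19:11274946-11308467) read 83.7 and 78.7 CPM in miControl and 135 and 147 with the mimic. It rose to 174% of the control mean (log2 fold change 0.795 ± 0.105, edgeR adjusted p = 8.41e-05), just short of the 0.8 needed for a call. No other member was higher at an adjusted p under 0.05, except LIMS2, SRC and EVL on library totals. KANK2 passed the line on library totals (0.96), with no filter on low counts (0.80), without miControl 1 (0.83) and without mimic replicate 1 (0.84). KANK1 read 14.8 and 14.6 CPM in miControl and 8.71 and 9.26 with the mimic, lower in both libraries (log2 fold change -0.70, adjusted p = 0.000746). Per kb of exon KANK2 was already 94.9% and 94.7% of the pair in miControl and was 98.1% in both mimic libraries. KANK4, outside the members, was low, at 1.99 and 0.844 CPM in miControl and 0.428 and 0.494 with the mimic (log2 fold change -1.60, adjusted p = 0.0103, not called), and KANK3 lay at 0.325 CPM or less throughout. SORBS3 (vinexin), which binds vinculin and was the most abundant of the group per kb of exon in miControl (18.8 CPM, and 15.1 with the mimic), read 119 and 101 CPM against 94.8 and 82.5. Its adjusted p was 0.0581, and below 0.05 by DESeq2 and under 5 other settings.

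The caveolins coat the membrane pits that flatten under tension. CAV1, the most abundant member of all per kb of exon (216 CPM in miControl, 169 with the mimic), read 826 and 846 CPM against 690 and 617. Both mimic libraries were lower (log2 fold change -0.35, edgeR adjusted p = 0.0204), though it missed 0.05 on library totals and without either miControl library. CAV2 was at -0.22 (adjusted p = 0.143, below 0.05 without mimic replicate 1). TES, CAV2 and CAV1 are neighbours on chromosome 7, between 115850560 and 116201233 in GRCh37.

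Other pairs of related members, picked after their values were seen, are set side by side as a description. Of 17 pairs compared, the shares of 14 did not overlap between the groups. The other 3, CRK with CRKL, PXN with TGFB1I1 and ENAH with VASP, overlapped. No such share was computed for pairs of other genes, so the count of 14 has no yardstick of its own. Taken gene by gene, 31.3% of all tested genes were lower without overlap and 33.2% higher. TNS1 and VASP recur among the pairs, so the pairs are not independent. CRK made up 64.0% and 63.6% of its pair in miControl and 64.6% and 62.8% with the mimic. LIMS2 went from 8.30% and 7.12% of the PINCH pair to 13.1% and 12.8%, FERMT1 from 6.33% and 5.88% of its pair with FERMT2 to 2.88% and 3.59%, and TNS2 from 4.41% and 4.31% of its pair with TNS1 to 8.42% and 6.52%. In these last pairs the named gene is the minor paralog. Whether the fold changes of paralogs differ was not tested. A share within a library does not depend on the scaling between libraries.

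**Figure D4:**
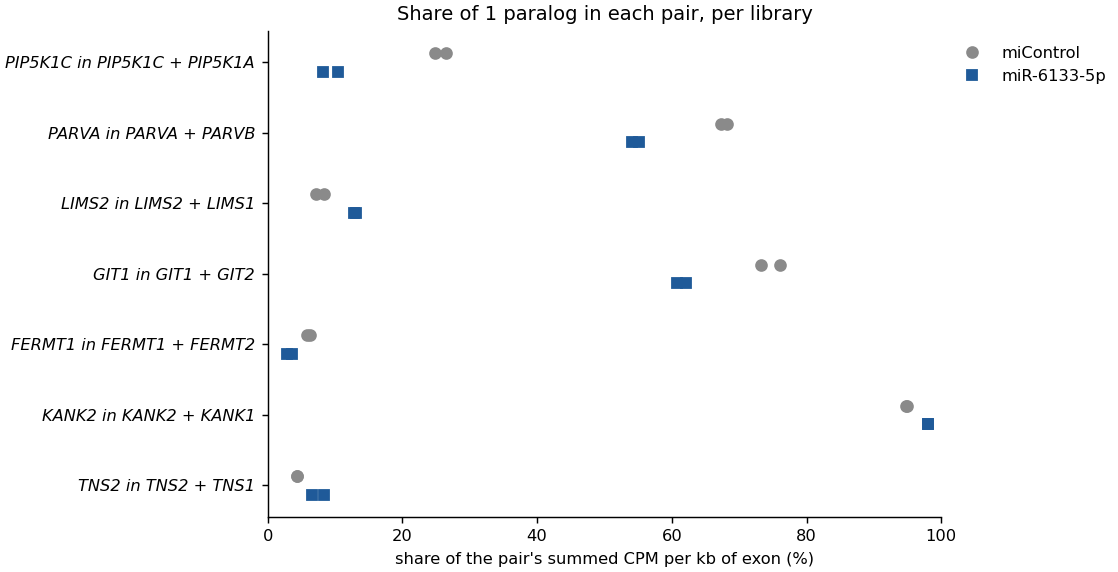
For 7 pairs, share of 1 paralog in the summed CPM per kb of exon of its pair (%), 1 point a library (circles, miControl; squares, miR-6133-5p). PIP5K1C shows the widest shift of the 7, from 24.8% and 26.5% to 8.23% and 10.4%.

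Promoters were searched because several members fell together. RefSeq gives 75 windows for 33 of the 39 genes (GRCh38.p14), read here over the 250 bases before each start, on both strands. The CArG box, the motif bound by SRF, matched in 3 of the 75 windows (4%), against 1.16% of all 35116 windows. The windows are of LPP, TES and TGFB1I1. GGAATG, the core bound by TEAD factors, matched in 9 windows (12.0% against 11.9%), of KANK1, LPP, PIP5K1C, PXN, TES, TNS1 and VCL. TGANTCA, the AP-1 motif, matched in 6 (8% against 6.57%), of BCAR1, GIT1, LIMS1 and LPP. A match is a description of the letters and shows no binding.

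The called members with a CArG box are shown with the box in capitals: TES at chr7:116222703-116222952, + strand, 1 of 2 windows of the gene, and LPP at chr3:188212462-188212711, + strand, 1 of 7. The box of TES spans bases 242 to 233 before the start and shares 2 bases with a GGAATG, and that of LPP spans bases 183 to 174. VCL (chr10:73997866-73998115, + strand) and PIP5K1C (chr19:3700469-3700718, - strand) hold no CArG box in their single window, and GGAATG is in capitals there. Which start the cells use was not measured.
TES: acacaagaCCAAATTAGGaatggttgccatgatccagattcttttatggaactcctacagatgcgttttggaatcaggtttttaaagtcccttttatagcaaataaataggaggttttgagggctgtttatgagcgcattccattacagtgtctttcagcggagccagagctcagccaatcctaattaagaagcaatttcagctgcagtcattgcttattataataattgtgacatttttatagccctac
LPP: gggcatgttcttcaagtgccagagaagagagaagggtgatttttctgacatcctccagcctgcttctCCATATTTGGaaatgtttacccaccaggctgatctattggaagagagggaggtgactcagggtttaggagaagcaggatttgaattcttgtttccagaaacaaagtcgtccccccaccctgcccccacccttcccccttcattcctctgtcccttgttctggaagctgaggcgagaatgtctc
VCL: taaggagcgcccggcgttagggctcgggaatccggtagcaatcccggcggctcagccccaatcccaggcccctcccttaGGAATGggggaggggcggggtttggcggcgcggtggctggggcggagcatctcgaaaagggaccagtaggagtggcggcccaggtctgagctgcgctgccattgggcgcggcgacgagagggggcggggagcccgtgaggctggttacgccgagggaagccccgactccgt
PIP5K1C: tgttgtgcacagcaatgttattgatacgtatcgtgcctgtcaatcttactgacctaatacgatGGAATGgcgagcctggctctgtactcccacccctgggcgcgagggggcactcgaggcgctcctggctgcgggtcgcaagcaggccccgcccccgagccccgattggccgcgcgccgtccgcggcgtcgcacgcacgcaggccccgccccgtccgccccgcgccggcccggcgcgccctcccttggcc

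Genes around these proteins were counted in lists of their own, to be read beside the 5.54% of all genes called lower and 2.90% called higher. Of 4 genes of SRF and its cofactors, 2 were called lower: SRF, at 82.8 and 80 CPM in miControl and 25.8 and 28.6 with the mimic (log2 fold change -1.58), and MYOCD (-1.76). MRTFA (0.31) and MRTFB (-0.15) did not pass an adjusted p of 0.05. Of 21 integrin chains tested, 3 were called lower, ITGA5 (-3.13), ITGB3 (-1.53) and ITGAV (-0.87), and 1 higher, ITGA7 (2.00). At an adjusted p under 0.05, 9 chains were lower and 1 higher (42.9% and 4.76%). The members stood at 44.7% and 2.63%, and all genes at 16.1% and 14.1%. Of 24 other linkers and LIM proteins, PDLIM5 (-1.17) and LIMA1 (-0.81) were called lower and AJUBA (0.84) higher, with a median of -0.10. These counts are near the share over all genes (8.33% lower). TRIP6, a zyxin relative like AJUBA, was at 0.58 (edgeR adjusted p = 0.000752).

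Of 10 genes of the cortical microtubule complex that KANK proteins organise, PHLDB2 (LL5-beta) was called lower, at 167 and 183 CPM in miControl and 82.8 and 91.6 with the mimic, or 49.8% of the control mean. In the caveolar coat, 2 of 8 were called lower, CAVIN1 (-1.05) and EHD2 (-1.03), and 1 higher, CAVIN2 (1.20). At an adjusted p under 0.05, where 16.1% of all genes were lower and 14.1% higher, these 2 were lower and 4 were higher, CAVIN2 with CAVIN3 (0.59), PACSIN2 (0.54) and PACSIN3 (0.42). CAVIN1 read 2093 and 1970 CPM in miControl and 951 and 1008 with the mimic, while its minor relative CAVIN2 read 9.09 and 8.66 against 20.8 and 19.9. The groups overlap in neither.

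**Figure D5:**
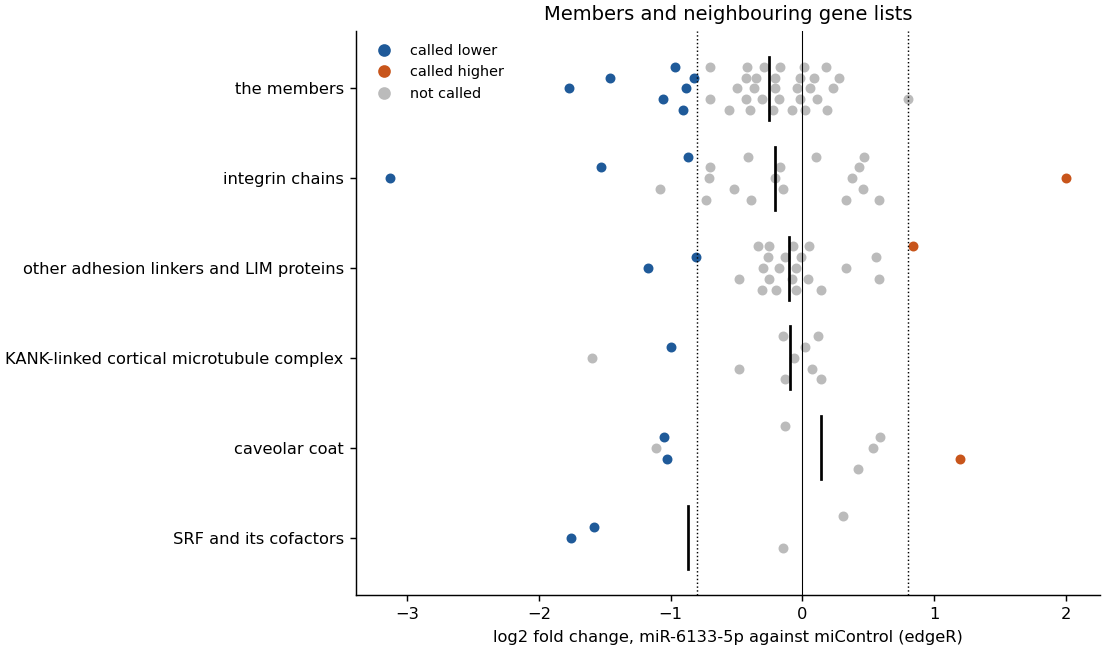
The log2 fold change of every tested gene in the members and the 5 other lists (edgeR, miR-6133-5p against miControl); bars mark each list's median and dotted lines -0.8 and 0.8. Medians run from -0.86 for SRF and its cofactors to 0.15 for the caveolar coat, with -0.26 for the members.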

How the data were processed

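RNA was sequenced in pairs after a stranded mRNA library kit. The authors deposited raw counts per gene, made with STAR 2.5.3a and featureCounts (Subread 1.6.4) on GRCh37; annotation release and strand setting are not stated in the sources used here. The deposited mapping summary gives as a fraction the share of pairs mapped uniquely, 0.9652 to 0.9676, with 1.68 to 1.70 counts per such pair, so both mates appear to be counted. Those counts were fitted with edgeR 4.0.16 in R 4.3.3 (TMM, filterByExpr, quasi-likelihood test, Benjamini-Hochberg over 18252 genes), with DESeq2 1.42.0 among the alternatives. CPM divide counts by TMM-scaled totals; GENCODE v44lift37 gave symbols (55665 of 63677 IDs), positions and exon lengths. Members and lists were chosen with earlier results of these data known, and the promoter motifs and paralog pairs after seeing the values. Members named are the called ones, the most abundant per kb in each role group, those against their group, and paralogs; from other lists up to 3 largest falls and rises among called genes, with TRIP6, KANK3, KANK4, FERMT3, CAVIN3, PACSIN2, PACSIN3 and the SRF cofactors added after their values were seen. Results for some genes are not reported here. Scripts were tested on simulated data. Counts agreed less well than sampling noise within both groups (chi-square per degree of freedom 12.8 for miControl, 44.3 for miR-6133-5p; counting both mates would raise these values), so no library was treated as a duplicate.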

Additional observations from a re-analysis of the deposited data

How the results depend on the processing

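Over 12 other settings, 428 of the members' log2 fold changes kept their direction and their side of the call, 11 lost a call, 5 gained one and 12 changed sign, all of these last in genes past no threshold. Signs were read after rounding to 2 decimals, so BCAR1 without miControl replicate 2 and VASP without mimic replicate 1, just under 0, are not counted as changed. RLE, DESeq2, a minimum of 10 counts in every library and thinning to the smallest library each kept the same 7 members called lower. On library totals alone, 977 genes were called higher, 4 members were called lower and 1 higher, 11 and 4 were lower and higher at an adjusted p under 0.05, and the members' median was -0.092; PARVB read 0.14, CSK 0.12, ENAH 0.09 and PIP5K1A 0.15, on a scale where the median of all genes is 0.19. With no filter on low counts, 1 member was called higher. Testing against the fold threshold itself (glmTreat) called 326 genes lower, 80 higher and 2 members, PIP5K1C and FERMT1, lower.

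Leaving out 1 library leaves a group with 1, which is then assumed to vary like the other group. Genes called higher ranged from 293 to 587, members called higher from 0 to 1, members lower at an adjusted p under 0.05 from 10 to 20, and the members' median from -0.36 to -0.22. The log2 fold change ranged from -0.03 to 0.16 for TNS2, -0.03 to 0.03 for FYN, -0.16 to 0.05 for CSK, -0.10 to 0.09 for GIT2, -0.03 to 0.12 for VASP and -0.10 to 0.03 for PIP5K1A; the cause was not tested. The labels do not say whether same-numbered samples are paired. The correlation of same-numbered deviations was 0.0665 over all tested genes. It rests on 1 difference between replicates in each group, so it cannot settle whether they are paired. With the replicate number as a block, 1130 genes were called lower and 642 higher, in place of 1011 and 529. The same 7 members were called lower. Seed matches of the miRNA were not analysed here. With 2 libraries a group, small changes may go undetected.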
